A study of Mus musculus with 11 samples.

Results

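The genes described here are 10 markers of astrocytes, the star-shaped glia of the brain, followed through cultures of mouse hippocampal neural stem cells (NSCs). The members were given as a list of symbols (Gfap, Aqp4, Aldh1l1, S100b, Slc1a2, Slc1a3, Gja1, Gjb6, Glul and Aldoc) and matched to gene identifiers through the GENCODE mouse annotation. All 10 were found among the 53801 genes of every table, and all 10 were among the 15920 genes with enough counts to be tested.

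The cells were primary NSCs isolated from the hippocampus of mouse embryos, and 11 RNA sequencing libraries were analysed. They received 1 µM 4HBP or its vehicle EtOH (CTRL) over 7 days. Proliferation medium held EGF and bFGF at 20 ng/ml each with 1% B27, whereas differentiation medium held 2% B27 and neither growth factor. Proliferation medium is represented by 3 libraries per treatment, and differentiation medium by 3 libraries of 4HBP cultures and 2 of CTRL cultures. No transgene or allele was named for any group, and the basal medium was the same in all of them. The study calls the compound 4-hydroxybenzophenone, while the sample labels call it 4-Hydroxybenzoic acid. The sources used here do not say whether the replicates came from separate cultures or animals, so the p-values measure the spread between these libraries, which may be technical.

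Astrocytes take up the glutamate that neurons release, turn it into glutamine, buffer potassium and water, and share small molecules through gap junctions. They arise from the same radial glia-like stem cells as neurons, and cytokines of the LIF and CNTF family and BMPs drive that step through STAT and SMAD proteins. Several of these markers, among them Gfap, Slc1a3, Glul and Aldoc, are also made by NSCs, so a marker's RNA does not count astrocytes by itself. In bulk RNA, fewer cells of a type and less RNA of the gene per cell cannot be told apart.

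The libraries held between 20822921 and 23438463 expected counts (fragments assigned to genes by RSEM), and 3 counts, taken as the floor, correspond to 0.128 to 0.144 CPM (counts scaled to the library total). This floor covers counting error only. Mitochondrial genes took 8.49% to 9.60% of the counts in proliferation medium and 5.76% to 6.24% in differentiation medium. The third 4HBP library in proliferation medium stood apart: its counts differed from those of the first and second with a mean chi-square per gene of 25.6 and 23, against 5.62 between the first and second. All 9 NSC markers examined (Nes, Sox2, Prom1, Egfr, Mki67, Fabp7, Msi1 and Pax6 among them) were above the floor in every library, from 16.2 CPM for Prom1 to 965 CPM for Fabp7 as means of the proliferation CTRL libraries. The 8 microglia markers summed to between 1.24 and 3.82 CPM in any library, and 5 to 7 of them were at or under 3 counts.

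The members are spread over 8 chromosomes of the GRCm38 build. Gfap, the intermediate filament of the astrocyte cytoskeleton (ENSMUSG00000020932.14), lies on the minus strand of chromosome 11 from 102887336 to 102900912. On the same chromosome is Aldoc (78322968 to 78327781), the glycolytic aldolase of astrocytes. Chromosome 10 holds Gja1 (56377330 to 56402513), which encodes connexin 43, and S100b (76253853 to 76261159), which encodes a calcium-binding protein. Gjb6, which encodes connexin 30, lies on chromosome 14 (57123303 to 57133611). Slc1a2 (chromosome 2, 102658659 to 102790784) and Slc1a3 (chromosome 15, 8634124 to 8710764) encode the glutamate transporters GLT-1 and GLAST. Glul (chromosome 1, 153899944 to 153909723) encodes glutamine synthetase, Aldh1l1 (chromosome 6, 90486427 to 90600203) a folate enzyme, and Aqp4 the water channel of the astrocyte endfoot. Counts were made over the exons of each gene.

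RefSeq start-site windows on GRCm38.p6, from 250 bases before to 50 after the start, were at hand for 9 of the 10 members. Gfap, Gja1 and Slc1a3 are shown because Gfap and Gja1 fell with 4HBP in proliferation medium while Slc1a3 was not called there. Capitals mark the matches found by searching both strands for motifs. The letters TTCNNNGAA stand for the site that STAT proteins are known to prefer. The AP-1 site was searched as TGANTCA, and for the TATA box the letters TATAAA were taken. A short NFI site was written TTGGC. For SOX proteins the search was for ACAAAG, and for the Notch effector RBPJ it was for GTGGGAA.
Gfap (chr11:102897151-102897450, minus strand): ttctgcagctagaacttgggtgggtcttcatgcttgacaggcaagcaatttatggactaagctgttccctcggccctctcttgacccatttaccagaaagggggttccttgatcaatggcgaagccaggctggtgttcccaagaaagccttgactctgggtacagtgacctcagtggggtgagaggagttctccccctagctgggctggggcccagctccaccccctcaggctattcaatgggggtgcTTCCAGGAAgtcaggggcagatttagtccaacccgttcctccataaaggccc
Gja1 (chr10:56377050-56377349, plus strand): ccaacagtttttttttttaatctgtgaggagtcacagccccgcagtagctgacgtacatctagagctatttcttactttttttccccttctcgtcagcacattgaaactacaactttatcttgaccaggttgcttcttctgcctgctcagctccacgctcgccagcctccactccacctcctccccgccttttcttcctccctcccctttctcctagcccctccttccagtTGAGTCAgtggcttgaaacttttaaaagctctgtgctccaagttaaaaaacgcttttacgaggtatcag
Slc1a3 (chr15:8710758-8711057, minus strand): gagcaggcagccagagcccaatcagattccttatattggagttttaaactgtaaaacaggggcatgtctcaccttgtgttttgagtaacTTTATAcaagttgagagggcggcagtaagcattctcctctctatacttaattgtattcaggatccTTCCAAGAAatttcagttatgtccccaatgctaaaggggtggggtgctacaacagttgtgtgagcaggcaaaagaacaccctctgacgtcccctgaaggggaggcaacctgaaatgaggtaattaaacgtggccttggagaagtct
In the Gfap window a STAT match covered bases 249 to 257, across the start site. The Gja1 window held 1 AP-1 match at bases 232 to 238. The Slc1a3 window held a STAT match at bases 155 to 163 and a TATA box match on the other strand at bases 90 to 95. A window at a second start site of Aldoc, not shown, held 2 STAT matches at bases 127 to 135 and 168 to 176. The STAT letters thus stood in windows of Gfap and Aldoc, which fell, and of Slc1a3, which did not pass the test. Among all 32851 windows of this length, 8.298% held the STAT letters, 7.808% the AP-1 letters and 13.616% the TATA box letters. NFI letters were found in the windows of Glul, Slc1a2, S100b and Aldoc, and 46.708% of all windows held one. The RBPJ letters, in 6.383% of all windows, were found for Aldoc. The SOX letters, in 18.712% of all windows, were in no member's window. No 2 of the marked matches overlapped, and a match is a stretch of letters and not a measured binding site.

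To compare the members with each other, levels per length are needed, and these are the TPM values that the authors deposited. In proliferation CTRL libraries the order ran from Gfap (1291 ± 126 TPM, SD, n = 3) through Slc1a3 (954 ± 21.7), Aldoc (584 ± 109), Glul (559 ± 80.8), Aldh1l1 (368 ± 21.9), Aqp4 (211 ± 22.6), Gja1 (208 ± 36) and Slc1a2 (90.4 ± 6.56) to S100b (25.9 ± 4.63) and Gjb6 (0.653 ± 0.248). Aldoc and Glul overlapped between libraries, as did Aqp4 and Gja1, and the other neighbours did not. In differentiation CTRL libraries Glul led with 3064 TPM (2985 and 3144), followed by Aldoc (1205 TPM), Slc1a3 (1176 TPM), Gfap (1101 TPM), Gja1 (757 TPM), Slc1a2 (421 TPM), Aqp4 (343 TPM), Aldh1l1 (166 TPM), S100b (72.1 TPM) and Gjb6 (3.32 TPM). There, the ranges of Slc1a3 and Gfap overlapped and those of the other neighbours did not. Under 4HBP in proliferation medium Slc1a3 (947 TPM) stood before Gfap (830 TPM), with overlapping ranges.

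The summed members made up 8874 to 10214 CPM in proliferation CTRL libraries and 7089 to 8117 CPM in proliferation 4HBP libraries, so that these groups did not overlap. In differentiation medium the sums were 15161 and 15207 CPM in CTRL libraries and 14491 to 14740 CPM under 4HBP. These groups did not overlap either, and the sums were again lower with 4HBP.

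**Figure D1:**
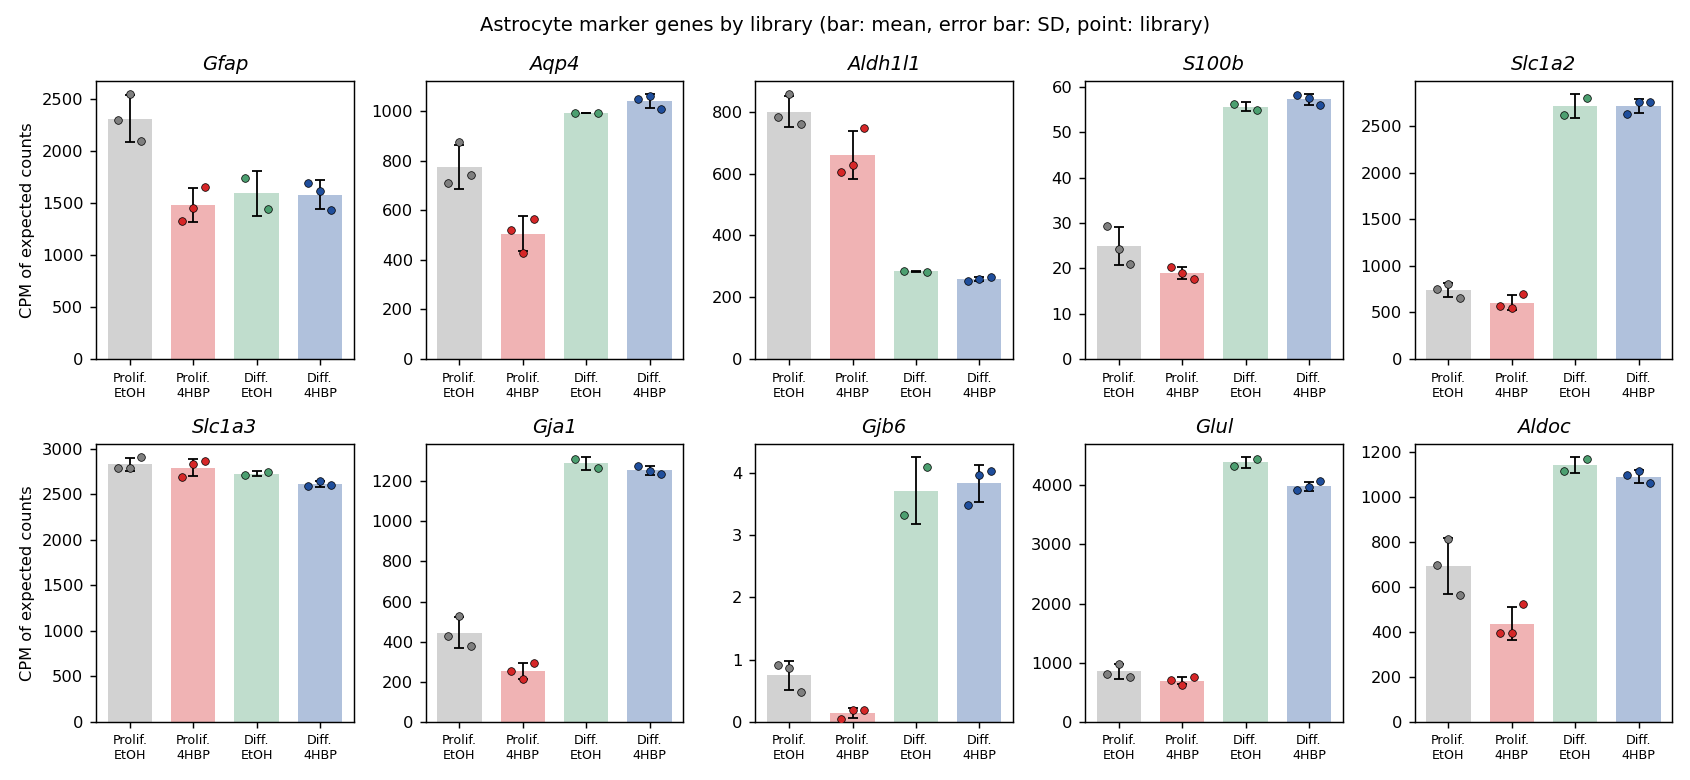
CPM of each of the 10 members in every library (points) by group, with the group mean as a bar, the SD as an error bar and a separate vertical axis for each gene. Gfap was highest in the proliferation CTRL libraries (2088 to 2541 CPM), whereas Glul, Slc1a2 and Gja1 were highest in both differentiation groups.

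The first comparison asks what 4HBP does to these genes while the NSCs are kept dividing. In proliferation medium 9 of the 10 members fell and 0 rose (edgeR, adjusted p under 0.05), whereas 16.8% of all genes tested were called, 8.59% higher and 8.17% lower. Connexins, the aldolase, the filament protein and the water channel fell most, the transporter Slc1a2 and the enzymes Glul and Aldh1l1 fell least, and the transporter Slc1a3 was not called. The median log2 fold change was -0.54 over the members and -0.0011 over all genes. In 8 of the 10 members the normalized values of the groups did not overlap, which was so for 29.5% of all genes.

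Gfap, the marker most used to stain astrocytes, was at 1329, 1445 and 1651 CPM in the 4HBP libraries and at 2289, 2541 and 2088 CPM in the CTRL libraries. Every 4HBP library was below every CTRL library, with a log2 fold change of -0.68 (SE 0.095, edgeR adjusted p = 0.000648). The water channel gene Aqp4 was at 521, 428 and 565 CPM with 4HBP and at 709, 877 and 743 CPM in CTRL. The gene lies on the minus strand of chromosome 18 from 15389496 to 15410982. Its groups were likewise apart, and the log2 fold change was -0.66 (SE 0.095, edgeR adjusted p = 0.000803).

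The connexins form the gap junctions that couple astrocytes to each other. Gja1 was at 251, 213 and 295 CPM under 4HBP and at 429, 528 and 378 CPM in CTRL. It fell with a log2 fold change of -0.85 (SE 0.11, edgeR adjusted p = 0.000563), and the groups were apart. Gjb6 was barely detected, with 1, 4 and 4 counts under 4HBP and 19, 18 and 10 counts in CTRL. These counts straddle or approach the floor of 3 counts in the 4HBP libraries, and the log2 fold change of -2.37 had a 95% interval from -3.33 to -1.42 (edgeR adjusted p = 0.00364).

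Among the metabolic enzymes, Aldoc changed most. It was at 394, 395 and 523 CPM with 4HBP and at 700.0, 813 and 565 CPM in CTRL (log2 fold change -0.70, SE 0.12, edgeR adjusted p = 0.00188), with no overlap. Glul was at 712, 624 and 754 CPM with 4HBP and at 815, 985 and 752 CPM in CTRL (log2 fold change -0.32, SE 0.092, edgeR adjusted p = 0.0312). For Glul the groups touched at 754 and 752 CPM per library total and were apart only after normalization between libraries. The folate enzyme gene Aldh1l1 was at 605, 629 and 747 CPM with 4HBP and at 785, 857 and 761 CPM in CTRL, a log2 fold change of -0.31 (SE 0.068, edgeR adjusted p = 0.00767). The third 4HBP library, which stood apart as a whole, was the one nearest to the CTRL values for Gfap, Aqp4, Gja1, Aldoc and Aldh1l1.

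The 2 glutamate transporters differed in their calls. Slc1a2 was at 574, 543 and 699 CPM under 4HBP and at 748, 805 and 657 CPM in CTRL. Its groups overlapped, since the third 4HBP library lay above the third CTRL library, and the log2 fold change was -0.32 (SE 0.087, edgeR adjusted p = 0.0255). Slc1a3 was at 2683, 2827 and 2864 CPM under 4HBP and at 2788, 2784 and 2908 CPM in CTRL, and its log2 fold change was -0.05 with a 95% interval from -0.16 to 0.06 (edgeR adjusted p = 0.548). Whether the transporters responded differently from each other was not tested. S100b was at 20.2, 18.9 and 17.6 CPM under 4HBP and at 29.4, 24.4 and 21.1 CPM in CTRL (log2 fold change -0.43, SE 0.10, edgeR adjusted p = 0.0137), with no overlap.

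The 9 calls borrowed their error from both media. In a fit to the 6 proliferation libraries alone 5 members were called, all lower (Gfap, Aqp4, Gja1, Gjb6 and Aldoc), where 7.43% of genes were called (3.74% higher and 3.69% lower). With limma voom and quality weights per medium 9 were called, where 10.7% of genes were. With limma on log2(CPM+1), fitted here to the 6 proliferation libraries and 27295 genes, 0 members passed the adjusted p, as did 0.245% of all genes. An unadjusted p under 0.05 was reached there by 7 members and 14.7% of all genes. Together with an absolute log2 fold change over 0.58, the cutoffs that the paper states, it was reached by 5 members and 2.12% of all genes. Without the third 4HBP library edgeR called 9 members and 18.4% of all genes.

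The second comparison asks the same of cultures in differentiation medium. There, 0 of the 10 members were called, and 0% of all genes tested were (edgeR, 644 genes at an unadjusted p under 0.05, 0 of them members). DESeq2 called 5 genes and limma on log2(CPM+1) called 0, none of them members. The median log2 fold change was -0.01 over the members and 0.006 over all genes. In 5 members the normalized values of the groups did not overlap (Glul, Aldh1l1 and Slc1a3 lower with 4HBP, Aqp4 and S100b higher), which was so for 32.6% of all genes.

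Gfap was at 1690.4, 1617 and 1426 CPM with 4HBP and at 1742 and 1439 CPM in CTRL. The groups overlapped, and the log2 fold change was 0.00 with a 95% interval from -0.23 to 0.23. Glul was at 3918, 3967 and 4069 CPM with 4HBP and at 4323 and 4452 CPM in CTRL, apart by a log2 fold change of -0.13 with an interval from -0.35 to 0.10. In a fit to the 5 differentiation libraries alone Glul was called (log2 fold change -0.13, edgeR adjusted p = 0.0144), the 1 member among 2.55% of genes called there (1.26% higher and 1.29% lower). With limma voom and quality weights 0 members were called, where 0.396% of genes were.

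Gja1 was at 1277, 1250 and 1236 CPM under 4HBP and at 1312 and 1267 CPM in CTRL, and Aqp4 at 1048, 1063 and 1008 CPM under 4HBP and at 992 and 993 CPM in CTRL. Their 95% intervals for the log2 fold change, -0.30 to 0.25 and -0.15 to 0.31, did not reach the falls estimated in proliferation medium. The widest interval was that of Gjb6, from -0.50 to 0.62, with 78, 92 and 84 counts under 4HBP and 73 and 96 in CTRL. The replicates in this medium lay closer together, with a common biological coefficient of variation (BCV) of 0.0368 against 0.117 in proliferation medium. Over all 11 libraries, which the single fit takes together, the common value was 0.0907.

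**Figure D2:**
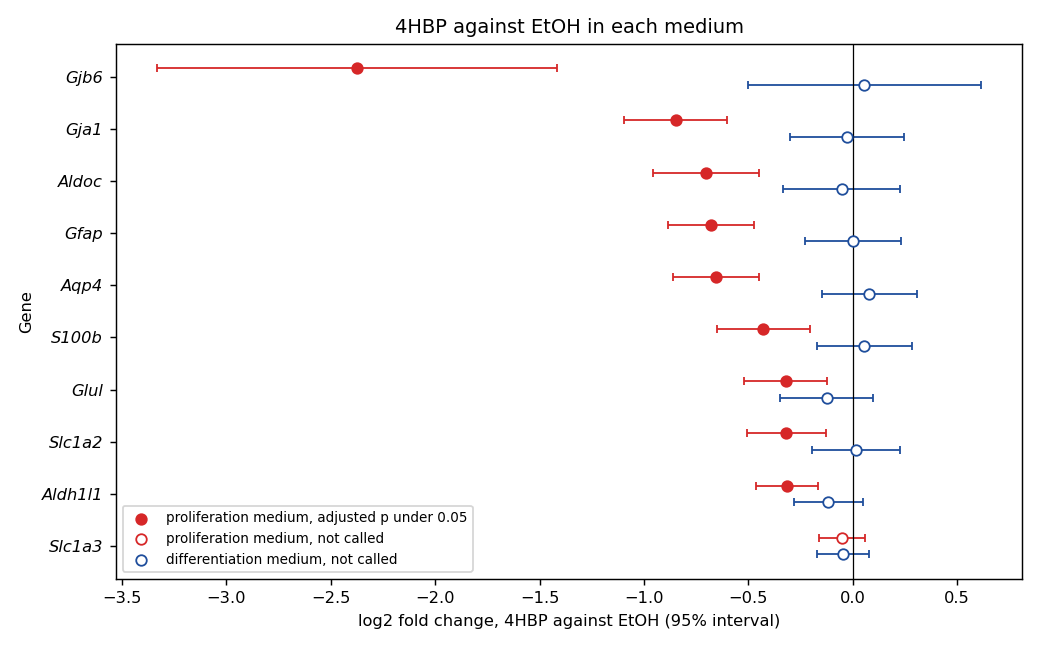
Log2 fold change of 4HBP against EtOH for each member in proliferation medium (red) and differentiation medium (blue), from edgeR, with 95% intervals as bars and filled points for an adjusted p under 0.05. All 9 called points are red and below 0, and every blue interval crosses 0.

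Whether the 4HBP effect itself differed between the media was tested as an interaction, coded as the effect in differentiation medium minus that in proliferation medium. It was called for 4 members and for 4.49% of all genes (2.48% higher and 2.01% lower). All 4 were higher in this difference: Gjb6 (2.43, 95% interval 1.31 to 3.56, edgeR adjusted p = 0.0212), Gja1 (0.82, 0.45 to 1.19, adjusted p = 0.0187), Aqp4 (0.74, 0.43 to 1.04, adjusted p = 0.0138) and Gfap (0.68, 0.37 to 0.99, adjusted p = 0.0192). Aldoc (0.65, edgeR adjusted p = 0.0565), S100b (0.48, adjusted p = 0.0883) and Slc1a2 (0.33, adjusted p = 0.177) missed the threshold, and so did Aldh1l1 and Glul (both 0.20) and Slc1a3 (0.00). The median over the members was 0.57, against 0.0038 over all genes. These 4 calls depended on single libraries: 0 members were called without the second differentiation CTRL library and 1 without the first, where 0.752% and 0.753% of all genes were called. Without the second differentiation 4HBP library 1 was called (1.93% of all genes), and 2 were without the first or the third (1.95% and 1.97%). Without the third proliferation library of either treatment 6 were called, beside 6.90% (4HBP) and 6.93% (CTRL) of all genes.

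The third comparison asks how far the markers moved between the media, and it shares its CTRL libraries with the comparisons above. Differentiation medium lacked both growth factors and also held more B27, and the parts of these changes cannot be told apart. In EtOH cultures all 10 members were called, 7 higher and 3 lower in differentiation medium, where 61.4% of all genes were called (30.8% higher and 30.6% lower). Glutamine synthetase, the connexins and the transporter Slc1a2 rose most, Aldh1l1 and Gfap fell, and Slc1a3 moved by the least. In all 10 the groups did not overlap, as in 76.3% of all genes, and the median log2 fold change was 0.85 over the members and 0.026 over all genes.

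Glul rose from 752 to 985 CPM across the 3 proliferation CTRL libraries to 4323 and 4452 CPM, a log2 fold change of 2.28 (SE 0.10, edgeR adjusted p = 1.81e-09). Gjb6 rose from 10 to 19 counts to 73 and 96 counts (log2 fold change 2.22, SE 0.30, edgeR adjusted p = 2.77e-05). Slc1a2 was at 2623 and 2805 CPM against 657 to 805 CPM (log2 fold change 1.80, SE 0.096, edgeR adjusted p = 8.92e-09). Slc1a2 brings glutamate into the astrocyte and Glul turns it into glutamine, and for both genes the lowest differentiation CTRL library was above the highest proliferation CTRL library.

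Gja1 (log2 fold change 1.45, edgeR adjusted p = 5.69e-07), S100b (1.07, adjusted p = 2.15e-06) and Aldoc (0.64, adjusted p = 0.000828) rose as well. S100b was at 56.3 and 54.9 CPM in differentiation CTRL libraries and Aldoc at 1118 and 1169 CPM. Aqp4 rose by the least of the 7 (log2 fold change 0.27, edgeR adjusted p = 0.0409), from 709 to 877 CPM to 992 and 993 CPM. This call rested on single libraries: it held in 4 of the 11 fits that left out 1 library, and without the first proliferation CTRL library the log2 fold change was 0.20 (adjusted p = 0.142).

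Aldh1l1, often used to label astrocytes as a whole, was at 285 and 282 CPM in differentiation CTRL libraries and fell by 1.59 on the log2 scale (SE 0.080, edgeR adjusted p = 4.97e-09). Gfap, at 1742 and 1439 CPM, fell by 0.62 (SE 0.11, edgeR adjusted p = 0.000242). Slc1a3 was at 2706 and 2741 CPM and at the edge of the threshold (log2 fold change -0.14, edgeR adjusted p = 0.0498), called in 2 of the 11 fits with 1 library left out. Its direction turned to 0.30 (adjusted p = 0.00499) with limma on log2(TPM+1), a scaling that moved the median of all genes to 0.303, so relative to that median Slc1a3 did not stand higher. Under that scaling Gfap was at -0.23 (adjusted p = 0.168), no longer called, and Aldh1l1 fell by 1.14. These p-values are taken against 0, and relative to the median of 0.303 both genes still stood lower.

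The same contrast in 4HBP cultures, on other libraries, called 9 members (7 higher and 2 lower), where 67.2% of all genes were called (33.3% higher and 33.8% lower). In 9 members the groups did not overlap, as in 71.6% of all genes. The log2 fold changes were 4.65 for Gjb6, 2.48 for Glul, 2.27 for Gja1, 2.13 for Slc1a2, 1.56 for S100b, 1.28 for Aldoc and 1.00 for Aqp4 among those that rose, and -1.39 for Aldh1l1 and -0.14 for Slc1a3 among those that fell (edgeR adjusted p between 3.34e-10 and 0.0317). Slc1a3 turned to 0.23 with limma on log2(TPM+1), where the median of all genes was 0.256. Gfap was not called by edgeR, at 0.06 with a 95% interval from -0.15 to 0.26 (edgeR adjusted p = 0.600). With limma on log2(TPM+1) Gfap was at 0.38 (adjusted p = 0.0192), beside the same median of 0.256. That p-value is taken against 0 and not against the median. In CPM the Gfap ranges overlapped, at 1426 to 1690.4 in differentiation 4HBP libraries and 1329 to 1651 in proliferation 4HBP libraries.

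**Figure D3:**
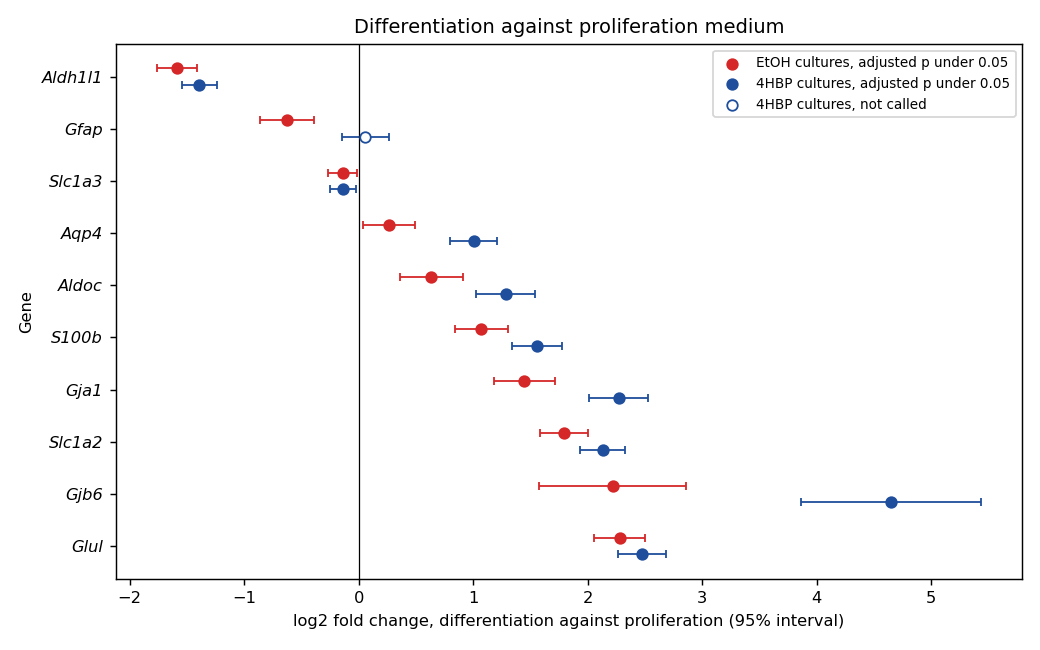
Log2 fold change between differentiation and proliferation medium for each member, in EtOH cultures (red) and 4HBP cultures (blue), from edgeR, with 95% intervals as bars and filled points for an adjusted p under 0.05. Aldh1l1 is below 0 in both, Gfap only in EtOH cultures, and Glul and Gjb6 are furthest above 0 in EtOH cultures.

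The glutamate transporters stood closer to each other in differentiation medium. As CTRL means, Slc1a2 was at 90.4 TPM in proliferation and 421 TPM in differentiation medium, and Slc1a3 at 954 and 1176 TPM. The ratio of Slc1a3 to Slc1a2 in TPM was 9.62 to 11.6 in proliferation CTRL libraries, 11.5 to 14.8 with 4HBP, and 2.63 to 2.89 over the 5 differentiation libraries. Thus GLAST RNA exceeded GLT-1 RNA in every library, by a smaller ratio in differentiation medium.

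RSEM also gives for each gene a mean transcript length, weighted by the isoforms it assigned the fragments to. For the 8 members whose length varied, the 6 proliferation libraries were compared with the 5 differentiation libraries by an exact two-sided permutation test. Gfap was longer in differentiation medium, at 2629 ± 5.35 bases against 2575 ± 17.0 (SD, exact p = 0.00433, Benjamini-Hochberg adjusted p = 0.0173), and the ranges, 2623 to 2636 and 2556 to 2598, did not overlap. Glul was longer too, at 2592 ± 50.6 bases against 2279 ± 128 (exact p = 0.00433, adjusted p = 0.0173), also with no overlap. For Aldh1l1 the means were 3082 and 3098 bases (exact permutation p = 0.0216, adjusted p = 0.0577), and the adjusted values of the other 5 members were 0.615 or more.

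In the vM21 annotation Gfap has the protein-coding transcripts Gfap-201 (2648 bases) and Gfap-202 (2600 bases) and a processed transcript of 356 bases. Glul has Glul-201 (2792 bases) and 4 others of 379 to 681 bases. How the authors' vM17 models divided these isoforms was not analysed here. Of the 40-base words in Glul transcripts 15.8% also occurred in other genes, most of them in Glns-ps1, while Gfap, Aqp4, S100b, Gjb6 and Aldoc shared none, so the Glul counts and lengths are the less certain.

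**Figure D4:**
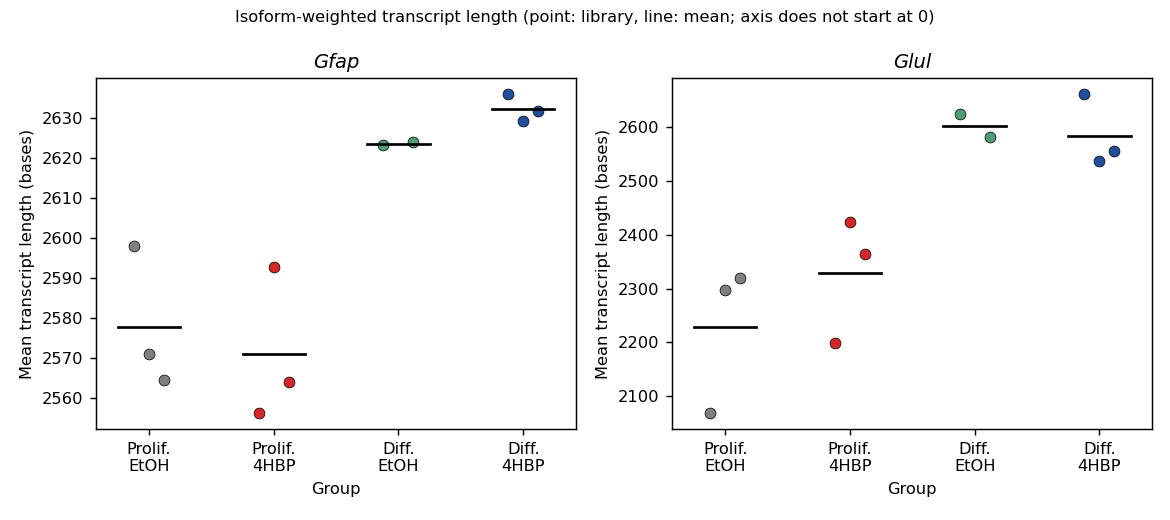
Mean transcript length weighted by isoform (bases, vertical axes not starting at 0) of Gfap and Glul in every library (points), with group means as lines. For both genes every differentiation library (Gfap 2623 bases or more) lies above every proliferation library (Gfap 2598 bases or less).

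The other astrocyte genes give the setting of the members. A list of 38 further astrocyte genes held 29 that fell and 2 that rose under 4HBP in proliferation medium, with a median log2 fold change of -0.36. These were 81.6% of the list, against 16.8% of all genes. In the fit to proliferation libraries alone, where 7.43% of all genes were called, 18 fell and 1 rose. Without the third 4HBP library, where 18.4% of all genes were called, 28 fell and 3 rose. The genes that moved furthest were Papss2, which makes the sulfate donor of the cell (1.61 ± 0.729 CPM with 4HBP and 7.07 ± 1.49 in CTRL, n = 3 each, log2 fold change -2.17), Agt, the precursor of angiotensin (3.76 ± 0.149 and 10.7 ± 2.54 CPM, -1.54), and Itih3, a hyaluronan-binding protein gene (1.87 ± 0.727 and 5.21 ± 1.45 CPM, -1.51). All 3 passed the test (edgeR adjusted p = 0.000120, 0.000120 and 0.00192). Slc7a11, the cystine-glutamate exchanger, rose from 46.3 ± 17.3 to 132 ± 27.2 CPM (log2 fold change 1.47, edgeR adjusted p = 0.00059). In differentiation medium 0 of the 38 were called, while in the fit to that medium alone, where 2.55% of all genes were called, 5 rose and 1 fell.

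Between media in EtOH cultures 27 of the 38 rose and 4 fell, with a median of 0.99. This was a share of 81.6%, against 61.4% of all genes. Slc39a12, a zinc transporter gene, rose from 3.99 ± 0.830 to 141 CPM (log2 fold change 5.05), Prodh, the proline dehydrogenase gene, from 2.58 ± 0.822 to 74.7 CPM (4.77), Slc7a10, an exchanger of serine and other small amino acids, from 0.238 ± 0.247 to 4.28 CPM (4.05, with 2, 11 and 2 counts in proliferation CTRL libraries, 2 of these 3 libraries under the floor of 3 counts), and Cldn10, a claudin gene, from 4.29 ± 0.866 to 52.8 CPM (3.53). All 4 passed the test (edgeR adjusted p between 8.44e-12 and 3.11e-06).

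Genes that astrocytes raise when reactive went partly another way. Of 12 such genes 6 rose and 1 fell under 4HBP in proliferation medium (58.3% of them, against 16.8% of all genes). The other 5 were not called: Vim (log2 fold change 0.02), Serpina3n (0.22), Timp1 (0.32), S1pr3 (0.17) and Aspg (-0.04). Gfap, which fell, is counted with the members and not in this list. The median log2 fold change over the 12 was 0.46. Lcn2, a secreted iron-siderophore carrier, was between 0.619 and 9.60 CPM with 4HBP and between 0.0952 and 0.191 CPM in CTRL (log2 fold change 4.73, edgeR adjusted p = 0.0113). Its CTRL libraries held 2, 2 and 4 counts, at or near the floor of 3, so the size of this fold change is uncertain. Cxcl10, a chemokine gene, was between 2.65 and 12 CPM with 4HBP and between 0.382 and 0.573 CPM in CTRL (log2 fold change 3.58, edgeR adjusted p = 0.00197). Cp, the ferroxidase ceruloplasmin, was between 10.8 and 50.6 CPM with 4HBP and between 4.35 and 7.09 CPM in CTRL (log2 fold change 2.06, edgeR adjusted p = 0.00742).

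The third 4HBP library weighed on these values. Without it the log2 fold changes were 2.43 for Lcn2, 2.51 for Cxcl10 and 1.14 for Cp, all still called (edgeR adjusted p = 0.00408, 0.000391 and 0.000705). Steap4, a metalloreductase gene whose groups overlapped, had a log2 fold change of 2.74 (edgeR adjusted p = 0.0448) and without that library 1.00 (adjusted p = 0.277). Hspb1, a small heat shock protein gene, was the 1 gene that fell (log2 fold change -1.34, edgeR adjusted p = 0.0303, named because it was alone) and was not called without that library (adjusted p = 0.0678). Without that library 6 of the 12 rose and 0 fell, where 18.4% of all genes were called. In the fit to proliferation libraries alone 2 rose and 0 fell, where 7.43% of all genes were called. In differentiation medium 0 of the 12 were called.

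Between media in EtOH cultures 4 of the reactive genes rose and 6 fell, a share of 83.3% against 61.4% of all genes. The protease inhibitor gene Timp1 fell by 4.91 and Serpina3n, another such gene, fell by 4.76 on the log2 scale, and Cd44, the hyaluronan receptor gene, fell by 2.98 (edgeR adjusted p = 7.25e-10, 5.89e-11 and 9.69e-08). Lcn2 rose (log2 fold change 3.48, edgeR adjusted p = 0.0305), from those 2, 2 and 4 counts (0.127 ± 0.0552 CPM) to 1.24 and 1.92 CPM.

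**Figure D5:**
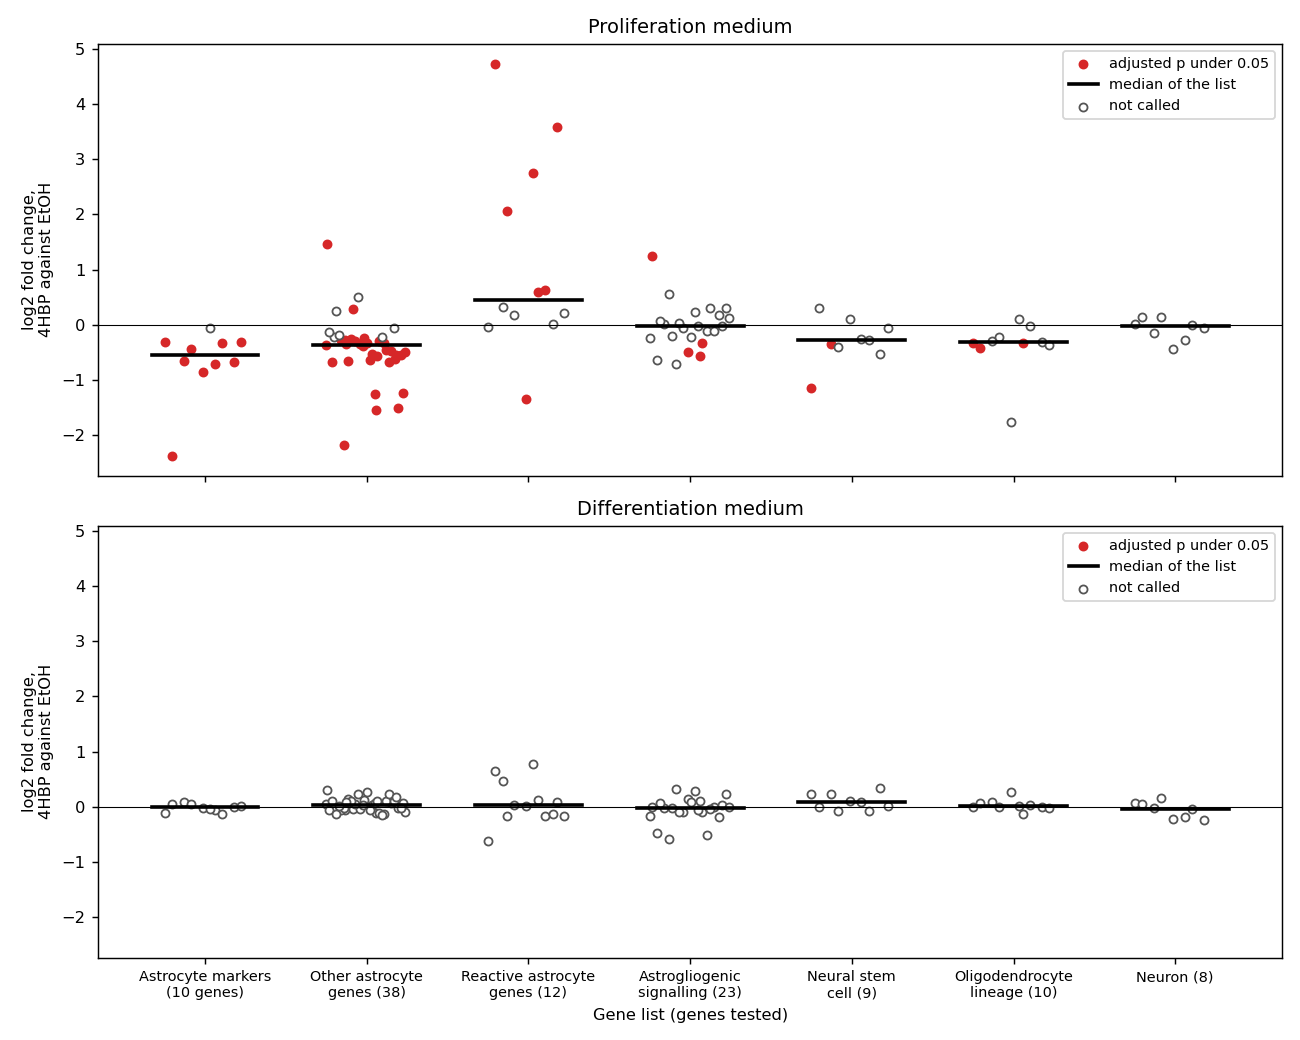
Log2 fold change of 4HBP against EtOH for each gene of the members and of the further marker lists, in proliferation medium (top) and differentiation medium (bottom) on the same vertical scale, with list medians as lines and filled points for an edgeR adjusted p under 0.05. In the top panel 9 of 10 members and 29 of 38 other astrocyte genes are called below 0, and 6 of 12 reactive genes above 0, while the bottom panel holds no called point.

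Of 23 genes for the signals and transcription factors that turn NSCs towards astrocytes, 1 rose and 3 fell under 4HBP in proliferation medium (median log2 fold change -0.02). This share of 17.4% was close to the 16.8% of all genes called there, so the count says nothing particular of the list. Without the third 4HBP library 2 rose and 5 fell, where 18.4% of all genes were called. In the fit to proliferation libraries alone 0 rose and 1 fell, where 7.43% of all genes were called. The call of Lif below was thus lost there, and at most 1 of the 3 falls below was kept. The cytokine gene Lif rose from 2.18 ± 1.02 to 5.34 ± 1.47 CPM (log2 fold change 1.25, edgeR adjusted p = 0.0135). The genes of its receptor, Lifr (-0.33, edgeR adjusted p = 0.00896), and of the CNTF receptor, Cntfr (-0.49, adjusted p = 0.00519), fell, and so did the ligand gene Bmp4 (-0.57, adjusted p = 0.00602). Between media in EtOH cultures 7 rose and 10 fell, a share of 73.9% against 61.4% of all genes. The Notch target Hes5 fell by 3.46 on the log2 scale, the STAT feedback inhibitor Socs3 by 1.75 and the cytokine gene Clcf1 by 1.56, whereas Bmp4 rose (log2 fold change 2.80), from 7.25 ± 1.28 to 53.5 CPM (edgeR adjusted p between 4.09e-10 and 0.00195 for the 4).

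Markers of other cell types moved with the same contrasts, and their part in the members' values was not tested. Under 4HBP in proliferation medium 2 of 9 NSC markers fell, among them the radial glia gene Fabp7 (log2 fold change -0.35), with sums of 2164 to 2625 CPM with 4HBP and 2569 to 2746 CPM in CTRL. This share of 22.2% was near the 16.8% of all genes called there. Without the third 4HBP library 4 NSC markers fell and 1 rose, and in the fit to proliferation libraries alone 1 fell and 0 rose. Of 10 oligodendrocyte lineage genes 3 fell (Olig1 -0.42, Cnp -0.34 and Cspg4 -0.33), with sums of 2514 to 3875 and 3683 to 4489 CPM. In the fit to proliferation libraries alone 0 of these 10 were called, and without the third 4HBP library 2 fell. Of 8 neuronal genes 0 were called (1 rose without that library), with sums of 1021 to 1037 and 1047 to 1129 CPM. Pdgfrb, of mural cells, had a log2 fold change of -2.28 (edgeR adjusted p = 0.0331), and this call was lost without the third 4HBP library (adjusted p = 0.078). Its list of 6 summed to 2.51 to 3.50 CPM with 4HBP and 2.48 to 3.67 CPM in CTRL, with 2 to 4 of them at or under 3 counts. None of the tested endothelial (2 of 6), ependymal (4 of 6) or microglia (1 of 8) genes was called. Without the third 4HBP library 1 ependymal gene, Foxj1 (log2 fold change -0.39, edgeR adjusted p = 0.000987), was called lower.

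Between media in EtOH cultures 61.4% of all genes were called. All 9 NSC markers were called there, 7 lower (Mki67 -3.20 and Nes -2.57 among them) and 2 higher (Prom1 1.58 the larger), and their sum was 1182 and 1229 CPM in differentiation CTRL libraries. Of the oligodendrocyte genes 7 rose and 0 fell, with the myelin genes Mog (5.85), Cnp (1.61) and Mag (1.52) among them, and the sum was 9303 and 9807 CPM. Of the neuronal genes 4 rose (Snap25 1.26, Stmn2 1.02 and Rbfox3 0.74 among them) and 2 fell (Gap43 -1.44 the further), with sums of 986 and 1007 CPM. The shares called, 70% of the oligodendrocyte and 75% of the neuronal genes, were not far above the 61.4% of all genes. The ependymal genes Dnah5 (3.42), Rarres2 (3.01), Rsph1 (1.72) and Foxj1 (1.33) rose, with a list sum of 122 and 124 CPM against 41.0 to 45.3 CPM. Pdgfrb (5.29) and Col1a1 (1.82) rose and Rgs5 (-1.66), Flt1 (-2.91) and P2ry12 (-1.90) fell, all in lists that summed to at most 32.4 CPM.

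Over the 11 libraries, the genes whose log2 CPM ran most like that of Gfap among 15919 others were Plekhd1 (Pearson r = 0.973), Ripply1 (0.972), Slc25a18 (0.959), Gm7265 (0.942) and Mad2l2 (0.942). The libraries fall into 4 groups, so these values describe the likeness of group levels, and no test is attached. Plekhd1 was at 4.41 ± 0.718 CPM in proliferation CTRL libraries and between 0.667 and 0.910 CPM as means of the other groups. Slc25a18, a mitochondrial carrier gene that is also in the list of 38, was at 126 ± 15.2 CPM in proliferation CTRL libraries and at 88.3, 88.1 and 85.7 CPM as means of the proliferation 4HBP, differentiation CTRL and differentiation 4HBP libraries. Among the other members r with Gfap ran from -0.36 (Glul) to 0.59 (Aldh1l1), so no other member shared its pattern as closely.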

How the data were processed

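Total RNA of hippocampal NSCs was sequenced by the study as 11 stranded poly(A) libraries with paired reads, and samples were grouped by their labels. The authors trimmed reads with cutadapt and quantified genes with RSEM 1.3.0 and Bowtie2 2.2.9 on mm10 (GRCm38) with GENCODE vM17 models. They deposited for each library the expected counts of RSEM, not normalized, of which 18.6% of the values above 0 were not whole. They also deposited TPM values, normalized by RSEM for length and depth, and FPKM values, which were not used here. The strand setting of the counting is not given in the sources used here. An opposite-strand gene overlaps Gfap, Aqp4, S100b, Aldh1l1, Slc1a2 and Glul.

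Symbols and positions were taken from GENCODE vM21 (99.7% of identifiers matched). Expected counts were rounded, filtered with filterByExpr, normalized by TMM and tested with edgeR 4.0.16 (quasi-likelihood F test, R 4.3.3) in 1 fit with 4 group means, with Benjamini-Hochberg adjustment over 15920 genes and a threshold of 0.05. Groups were called not overlapping on TMM-normalized log2 CPM. The fit was run on simulated data with 200 genes changed 2-fold. The simulation gave each gene the same spread in all libraries, so it did not cover the unlike spread of the media. Fold changes are relative to the TMM scaling, and intervals are 95% intervals of the fit. Alternatives used limma 3.58.1, DESeq2 1.42.0, other scalings, no filter, 1 medium alone, the replicate number as a block, and the omission of single libraries. Between treatments within a medium the replicate numbers showed no sign of pairing (correlation of deviations -0.06 to 0.02), which does not exclude it. Pairing across media was not examined. No 2 libraries were duplicates.

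The members and lists were chosen with earlier results of these data known. Named were all members and, for each further list, the 4 called genes with the largest absolute log2 fold change under 4HBP in proliferation medium and between media in EtOH cultures, except for 2 genes that are counted in their lists and not reported here by name. The 5 reactive genes not called under 4HBP in proliferation medium were named in addition. Tables and permutation tests were computed in Python 3.11.15 (pandas 2.3.3, scipy 1.17.1).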

Additional observations from a re-analysis of the deposited data

Results flagged for a closer look

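The effect of 4HBP differed between the media by the interaction test (edgeR adjusted p under 0.05, effect in differentiation medium minus that in proliferation medium, log2) for 4 members: Gjb6 (2.43), Gja1 (0.82), Aqp4 (0.74) and Gfap (0.68).

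Among the other astrocyte genes named in the report the same test called Papss2 (2.15), Itih3 (1.48), Agt (1.42), Cldn10 (1.32) and, in the opposite direction, Slc7a11 (-1.17). Of the 38 genes in that list 16 were called higher and 1 lower in this difference, against 4.49% of all genes. Among the signal and NSC genes named, Bmp4 (0.67), Cntfr (0.63) and Fabp7 (0.59) were called. Apart from Cldn10, these named genes were chosen for a large change under 4HBP in proliferation medium. That change enters the difference, so the choice favoured these calls and they add no separate support. For the members the calls of this test depended on single libraries, as given above. Of the 12 reactive genes 0 were called, with Cxcl10 at -3.49 (adjusted p = 0.0644) and Lcn2 at -4.07 (adjusted p = 0.146).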

How the results depend on the processing

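In proliferation medium 9 members were called for 4HBP, where 16.8% of all genes were. They became 5 with 1 medium alone (7.43% of all genes), 0 with limma on log2(CPM+1) (0.245%) and 4 with limma on log2(TPM+1) (8.61%). An unadjusted p under 0.05 with an absolute log2 fold change over 0.58 gave 5 (limma on log2(CPM+1), 2.12% of all genes). These are the cutoffs that the paper states, and they were added here after seeing the data. Leaving out 1 library gave 7 to 9 (9.76% to 19% of all genes). In differentiation medium 0 members were called when 1 library was left out of a group of 3, and 1 medium alone called 1 (2.55% of all genes). Between media in EtOH cultures limma on log2(CPM+1) called 6 of the 10 and 32.3% of all genes, against 61.4% in the main fit. Leaving out 1 library of a group of 3 gave 8 to 10 there (57.9% to 66.1% of all genes). Under 4HBP it gave 8 to 9 (62.2% to 68.8%). The interaction called 0 members with limma on log2(CPM+1) or log2(TPM+1), 7 with no filter, and 0 to 6 with 1 library left out (2, 1 and 2 without differentiation 4HBP replicates 1, 2 and 3, and 1 and 0 without CTRL replicates 1 and 2). Among all genes the interaction called 0.967% with limma on log2(CPM+1), 0.616% with limma on log2(TPM+1) and 5.96% with no filter. The replicate block was used although the numbers showed no pairing between treatments. It called 8 members for 4HBP in proliferation medium (14.7% of all genes, Glul at edgeR adjusted p = 0.0603) and 0 in differentiation medium (0.00628%). Between media it called 8 in EtOH cultures (58.6%) and 8 in 4HBP cultures (65.7%), and it called 5 in the interaction (4.35%). The causes of these shifts were not tested.

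Values near 0 changed sign, none of them called in either fit. Gfap under 4HBP in differentiation medium was at -0.0055 with 1 medium alone, -0.0088 with limma on log2(CPM+1), -0.012 with library totals, -0.0054 with no filter and -0.027 with limma on log2(TPM+1), and between -0.13 and 0.13 without single libraries (below 0 at -0.0054, -0.046, -0.016 and -0.13). There, Slc1a2 was at -0.016 with limma on log2(TPM+1), and without single libraries Slc1a2 ran from -0.044 to 0.065 and Gjb6 from -0.096 to 0.21, each lowest without CTRL replicate 1. Slc1a3 in the interaction was at -0.043 with limma on log2(CPM+1), -0.043 with library totals, -0.071 with limma on log2(TPM+1) and -0.0038 with the replicate block, and ran from -0.022 to 0.026 without single libraries (below 0 also at -0.0054, -0.0070, -0.0043 and -0.0096). Called values that changed sign were those of Slc1a3 between media with limma on log2(TPM+1), 0.30 in EtOH and 0.23 in 4HBP cultures, where the median of all genes was 0.303 and 0.256. With library totals that median was 0.114 in EtOH cultures.

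Gjb6 is limited by depth, with 1 to 19 counts in proliferation medium. The 2 differentiation CTRL libraries limit every contrast that uses them.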
